A study of Homo sapiens with 42 samples.

Results

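The late phase of PMA treatment was measured as the change in chromatin loop contacts between 6 h and 72 h in K562, an established human leukemia line. It rests on the 28 samples labelled 6 h or 72 h, of 42 in the series, which sum to 8 of 12 libraries. Over all 12 libraries, 24132 of the 33914 loops in the table held enough counts for a test. K562 cells of wild-type genotype received 25 nM PMA for 0 h, 6 h or 72 h, and the medium was renewed after 24 h and 48 h. The 0 h libraries served to tell late changes from those already present at 6 h. They also entered the filter on counts, the scaling and the shared estimate of the spread behind the SEs and p-values. All cells come from 1 line, so nothing here speaks for primary megakaryocytes, and the labels do not say whether replicates were separate cultures. The p-values therefore measure the spread between these samples.

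PMA is a phorbol ester that activates protein kinase C in place of diacylglycerol, and the MAPK cascade and AP-1 factors act downstream of it. K562 cells carry erythroid features and take on megakaryocyte features under PMA: they stop dividing, adhere and become polyploid. A loop is a pair of genome positions, its anchors, that touch more often than their surroundings, commonly where cohesin stops at CTCF or where an enhancer meets a promoter. In situ Hi-C joins neighbouring DNA ends inside fixed nuclei, and each joined pair that is sequenced counts as a contact. More cells with a loop and more contact per cell cannot be told apart in such bulk libraries.

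Libraries held 736929 to 1090199 contacts in loops at 6 h, 988726 to 1181057 at 72 h and 849895 to 1472197 at 0 h. At 72 h, counts of replicates 3 and 4 agreed within sampling noise (chi-square per degree of freedom of 1.00, p = 0.489), as did those at 0 h (1.01, p = 0.0591). Each such pair counts as 1 sample in every mean, so n = 3 at 72 h and 0 h, and n = 4 at 6 h. Replicates 3 and 4 at 6 h were almost as close (chi-square per degree of freedom of 1.02, p = 0.0327). They stayed 2 samples only because that p lay under 0.05. The n of 4, the SDs at 6 h and the exact permutation tests of 4 against 3 rest on this cut. The log2 changes, SEs and adjusted p-values come from a fit that keeps both members of each pair, with 4 libraries per time. With replicates 3 and 4 summed at every time, 4495 loops passed in place of 4945, and of the loops named here 4 did not, at ITGA3, ICAM1, KLF6 and the CD14 rise (adjusted p = 0.058, 0.070, 0.052 and 0.056). Values per loop are normalized contacts, scaled to a library of 1000000 contacts. Counts include the local background of the pixel, since none was subtracted.

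Contacts changed at 4945 loops between 6 h and 72 h, 20.5% of those tested (edgeR quasi-likelihood test, Benjamini-Hochberg adjusted p under 0.05). Of these, 2577 loops rose (10.7%) and 2368 fell (9.81%). The median log2 change was 0.66 among loops that rose and -0.57 among those that fell, and 2766 loops moved at least 1.5-fold. DESeq2 called 1989 loops, 1046 of them higher and 943 lower. The call rested on no single library: 3676 to 4415 loops passed when each 6 h or 72 h library was left out in turn. Per the labels, replicates 1 and 2 have 3 technical replicates sequenced in 1 run and replicates 3 and 4 have 2 sequenced in 2 runs. Within replicates 1 and 2 alone 2400 loops passed, and within replicates 3 and 4 alone 1690.

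Of the loops that changed, 63.1% had shown little change by 6 h. A loop was placed in the class that changed only after 6 h when it passed the threshold between 6 h and 72 h, did not pass it between 0 h and 6 h, and differed by less than 0.25 (log2) between 0 h and 6 h. This class held 3121 loops, 12.9% of those tested, of which 1673 rose (6.93%) and 1448 fell (6.0%). A further 1488 loops changed late without passing at 6 h but had moved beyond that limit by then. Only 108 late changes continued a change in the same direction that had passed at 6 h, and 228 ran opposite to one (6.41% of all tested loops passed between 0 h and 6 h). Both steps share the 6 h libraries, so these counts describe the sorting and carry no test.

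The limit of 0.25 is a choice along a continuum. Just inside it lay a loop with a 6 h change of 0.24985 and a late change of 0.70, and just outside it one with 0.25017 and -0.49. For 2510 of the 3121 loops the 95% interval of the 6 h change stayed within 1.5-fold. With limits of 0.15 and 0.4, 1109 and 2177 loops rose only after 6 h. The class was also examined in libraries that had no part in choosing it. Of loops chosen in replicates 1 and 2 as rising only after 6 h, 96.2% of the 664 measured in replicates 3 and 4 were again higher at 72 h, with a median late change of 0.54 and a median 6 h change of 0.05. For those chosen as falling, 93.5% of 539 were again lower, with medians of -0.43 and -0.00. Fewer passed the threshold again: 214 of the rising and 128 of the falling loops. Median late changes had been larger where the loops were chosen, 0.82 and -0.77. Chosen in replicates 3 and 4 and measured in 1 and 2, 96.9% of 388 rising and 91.9% of 508 falling loops kept their direction, with median late changes of 0.63 and -0.33. In these libraries the median 6 h changes were 0.12 and -0.13, in the direction of the late change. There 200 of the rising and 118 of the falling loops passed the threshold again. Where chosen, their median late changes had been 0.87 and -0.61.

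The rises only after 6 h with the smallest p-values and a gene end in an anchor included loops at DUSP10, SMYD2, CCR1, TNC, GALNT15 and between CCR3 and CCR2. Anchors are 10 kb wide, and a gene is placed at one when either end of a protein-coding gene lies inside. DUSP10 encodes a phosphatase that inactivates the stress MAP kinases JNK and p38. Its loop of 90 kb joins chr1:221740001-221750000, which holds an end of DUSP10, to chr1:221830001-221840000 (hg38). Normalized contacts of this loop were 39.1, 58.9, 61.5 and 51.2 at 0 h, 52.9, 42.1, 66.5 and 71.2 at 6 h, and 126, 113, 129 and 124 at 72 h. Every 72 h library lay above every earlier one, and 0 h and 6 h overlapped. The mean went from 58.2 ± 13 (SD, n = 4) at 6 h to 122 ± 7.3 (SD, n = 3), a log2 change of 1.09 with an SE of 0.13 (edgeR adjusted p = 3.6e-12), against 0.14 between 0 h and 6 h (adjusted p = 0.65). DUSP10 anchored 4 tested loops, of which 3 rose, and the loop of 420 kb had a late change of 0.07 (adjusted p = 0.83).

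Next to each other on chromosome 3 lie the chemokine receptor genes CCR1, CCR3 and CCR2, which guide the movement of leukocytes. The loop of 110 kb from chr3:46090001-46100000 to the CCR1 anchor at chr3:46200001-46210000 had normalized contacts of 69.5, 56.0, 66.5 and 70.5 at 0 h, 77.5, 70.1, 56.6 and 62.7 at 6 h, and 128, 130, 132 and 124 at 72 h. Its level was flat over the first 6 h and stood apart in all 72 h libraries, with a log2 change of 0.90 ± 0.12 (SE, adjusted p = 9.4e-10). The adjoining loop of 150 kb between CCR3 and CCR2 went from 92.0 ± 8.1 (SD, n = 4) at 6 h to 158 ± 11 (SD, n = 3) at 72 h, a log2 change of 0.75 (adjusted p = 4.1e-08). GALNT15, a transferase that starts mucin-type O-glycans, anchors a loop of 120 kb on the same chromosome with 61.8, 62.6, 59.4 and 53.1 contacts at 6 h and 116, 99.4, 116 and 92.8 at 72 h (log2 change 0.81, adjusted p = 2.2e-07). The 6 h and 72 h libraries of this loop did not overlap.

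To show what lies at these anchors, the 250 bases before the start of the genes are given for DUSP10, CCR1 and GALNT15, whose loops rose, and MESD, whose loop fell. They are from RefSeq (GRCh38.p14), 5′ to 3′ on the strand of the gene, at chr1:221742090-221742339 (minus), chr3:46208314-46208563 (minus), chr3:16174430-16174679 (plus) and chr15:80989820-80990069 (minus). Capitals mark matches, on either strand, to 4 motifs. The letters searched were TGANTCA for the AP-1 factors of the FOS and JUN families. For GATA factors, which direct erythroid and megakaryocyte genes, they were AGATAA. RUNX factors, which act in megakaryocytes, were searched as TGTGGT. The ETS family, to which the megakaryocyte factor FLI1 belongs, was searched as CCGGAAG.
DUSP10: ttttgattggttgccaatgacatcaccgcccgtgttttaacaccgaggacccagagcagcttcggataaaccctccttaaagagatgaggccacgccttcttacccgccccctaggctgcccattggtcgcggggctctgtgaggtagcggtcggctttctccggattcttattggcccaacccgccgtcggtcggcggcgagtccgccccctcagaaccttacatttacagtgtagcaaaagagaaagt
CCR1: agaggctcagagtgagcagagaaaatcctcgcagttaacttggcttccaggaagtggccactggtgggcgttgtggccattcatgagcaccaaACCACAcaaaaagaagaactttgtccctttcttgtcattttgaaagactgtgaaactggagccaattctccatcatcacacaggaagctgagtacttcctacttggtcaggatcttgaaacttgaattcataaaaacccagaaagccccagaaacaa
GALNT15: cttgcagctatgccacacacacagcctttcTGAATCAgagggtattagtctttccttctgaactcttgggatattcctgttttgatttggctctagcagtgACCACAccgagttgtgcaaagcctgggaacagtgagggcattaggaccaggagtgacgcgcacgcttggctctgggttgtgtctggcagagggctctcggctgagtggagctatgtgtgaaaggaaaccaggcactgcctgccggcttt
MESD: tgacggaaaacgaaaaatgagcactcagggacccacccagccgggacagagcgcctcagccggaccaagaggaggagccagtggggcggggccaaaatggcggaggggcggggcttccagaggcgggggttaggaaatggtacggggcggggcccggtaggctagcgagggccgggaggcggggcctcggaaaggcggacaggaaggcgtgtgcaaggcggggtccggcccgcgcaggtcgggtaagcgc
The CCR1 stretch holds 1 RUNX match, whose first base is 157 bases before the start. GALNT15 holds 1 AP-1 match at 220 bases and 1 RUNX match at 149 bases before the start, and the stretches of DUSP10 and MESD hold none of the 4 motifs. Such matches are common: 5.04% of 15842 coding-gene promoters held AP-1 letters in this window, 6.84% GATA, 8.89% RUNX and 11.8% ETS. Among 233 promoters in anchors of loops that rose only after 6 h the shares were 5.15%, 8.15%, 10.3% and 12.02%, and among 419 in anchors of loops that fell only after 6 h 3.10%, 5.49%, 6.21% and 14.8%. These shares are descriptions, with no test.

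TNC encodes tenascin C, a glycoprotein of the extracellular matrix. The loop of 100 kb at its end had 37.3, 29.0, 29.7 and 41.0 normalized contacts at 6 h and 77.0, 83.3, 69.7 and 75.0 at 72 h, a log2 change of 1.11 ± 0.15 (SE, adjusted p = 1.6e-09), after one of 0.03 at 6 h. THBS1 encodes thrombospondin 1, a protein of platelet alpha granules. Its loop of 190 kb rose from 46.3 ± 5.2 (SD, n = 4) to 74.3 ± 13 (SD, n = 3), a log2 change of 0.72 (adjusted p = 4.8e-05). Loops of 60 kb and 100 kb that end in the anchor before it rose by 0.96 and 0.97 on the log2 scale. The loop of 250 kb at SMYD2, a lysine methyltransferase, rose from 59.7 ± 6.9 to 117 ± 5.7 (log2 change 0.96, adjusted p = 3.8e-10). The anchor at SMYD2 had 3 tested loops, of which 1 rose and 1 fell (median -0.25).

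**Figure D1:**
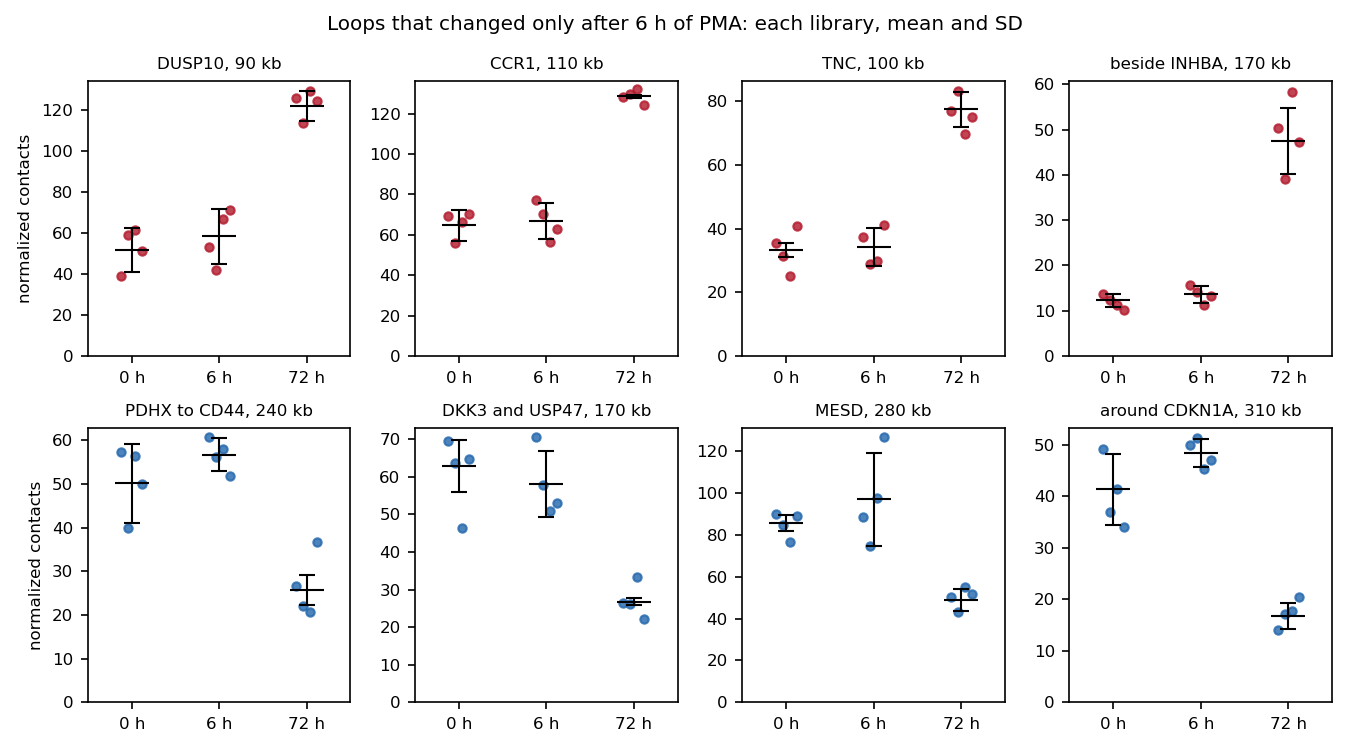
Normalized contacts (vertical axes, from 0, scaled to 1000000 contacts per library) of 8 loops that changed only after 6 h, with 1 point per library at 0 h, 6 h and 72 h. Black marks give the mean and SD (n = 3, 4 and 3). The 4 upper loops sit at like levels at 0 h and 6 h and higher in all 72 h libraries, and the 4 lower loops are lower in all 72 h libraries, as at DUSP10 (113 to 129 at 72 h) and around CDKN1A (14.2 to 20.5), a loop with no end of CDKN1A in its anchors.

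The largest rises, among loops with a mean of at least 20 normalized contacts and no overlap of libraries, were up to 3.28-fold and mostly had no gene end in an anchor. Over all tested loops, 10.4% had every 72 h library above every 6 h library and 9.43% every one below. In the region of TBX3, a T-box repressor, lay a loop of 170 kb with no coding gene end in its anchors. It joins chr12:114930001-114940000 to chr12:115100001-115110000, with 19.6, 14.95, 25.5 and 21.7 contacts at 6 h and 77.0, 48.2, 74.9 and 77.7 at 72 h. Its log2 change of 1.71 ± 0.17 (SE, adjusted p = 1.1e-14) was the largest, followed by 1.70 for a loop of 730 kb that spans TBX3. The nearest coding gene to the first was TBX3, 246 kb away, and the second ends 0.255 kb from TBX3. These loops had 6 h changes of 0.25 and 0.54, so they lie outside the class that changed only after 6 h.

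INHBA, EGFR and ETS1 lie near or inside further rises among the 8 largest, with no end in the anchors. INHBA encodes the beta A subunit of activins, and 4.59 kb from it ends a loop of 170 kb with 15.7, 14.0, 11.3 and 13.3 contacts at 6 h and 50.4, 39.2, 58.2 and 47.3 at 72 h (log2 change 1.68, adjusted p = 3.6e-12). EGFR, a receptor tyrosine kinase, lies inside a loop of 260 kb with 19.6, 22.4, 21.2 and 18.1 contacts at 6 h and 74.3, 51.2, 62.4 and 66.1 at 72 h (log2 change 1.55, adjusted p = 5.5e-13). Both were at like levels at 0 h and 6 h, with 6 h changes of 0.16 and 0.02. ETS1, a transcription factor of the ETS family, is 8.77 kb from a loop of 150 kb that rose from 14.1 ± 7.6 (SD, n = 4) to 48.4 ± 6.6 (SD, n = 3) normalized contacts (log2 change 1.55, adjusted p = 4.8e-10). The other large rises were at ABCA13, at SIPA1L1 and in a stretch of chromosome 12 whose nearest coding gene, FAR2, is 179 kb away (log2 changes 1.34, 1.33 and 1.45).

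The falls only after 6 h with the smallest p-values and a gene end in an anchor included loops at CD44, DKK3, MESD and SMAD6. CD44 is a receptor for hyaluronan, and PDHX a subunit of the pyruvate dehydrogenase complex. The loop of 240 kb from PDHX (chr11:34990001-35000000) to CD44 (chr11:35230001-35240000) had 57.2, 39.9, 56.5 and 50.03 contacts at 0 h, 60.8, 56.1, 58.0 and 51.9 at 6 h, and 26.5, 22.1, 20.8 and 36.6 at 72 h. All 72 h libraries lay below all others, and the log2 change was -1.03 ± 0.16 (SE, adjusted p = 6.2e-07). DKK3, of the Dickkopf family, and the deubiquitinase USP47 share an anchor of a loop that went from 58.1 ± 8.8 (SD, n = 4) to 26.8 ± 0.88 (SD, n = 3), a log2 change of -1.08 (adjusted p = 1.3e-07). MESD, a chaperone of the LRP receptors of Wnt signalling, anchors a loop of 280 kb with 88.2, 74.8, 97.6 and 127 contacts at 6 h and 50.4, 43.2, 55.1 and 51.8 at 72 h (log2 change -0.90, adjusted p = 6.9e-08). SMAD6, an inhibitory SMAD, had a loop that fell from 76.7 ± 7.4 to 40.5 ± 6.8 normalized contacts (log2 change -0.85, adjusted p = 2.1e-06).

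Other falls only after 6 h were at CLEC3B, COL11A2, LSM3 and between PPP1R1B and IKZF3, with log2 changes of -0.84, -0.60, -0.72 and -0.70. The anchor at LSM3 had 3 tested loops, of which 1 rose and 1 fell (median -0.23). The loop from PPP1R1B to IKZF3, which encodes the lymphoid factor Aiolos, spans 8 genes, ERBB2 among them, and went from 139 ± 8.1 (SD, n = 4) to 82.6 ± 7.6 (SD, n = 3). Among the largest falls, the loop of 310 kb around CDKN1A, the gene of the cell cycle inhibitor p21, had 50, 51.4, 45.3 and 47.1 contacts at 6 h and 14.2, 17.1, 17.7 and 20.5 at 72 h. That is a 2.62-fold drop (log2 change -1.39 ± 0.18 SE, adjusted p = 1.1e-09), and neither of its anchors holds an end of CDKN1A. The tested loop with an end of CDKN1A in an anchor, of 60 kb, had 185 ± 19 (SD, n = 4) normalized contacts at 6 h and 163 ± 8.7 (SD, n = 3) at 72 h and did not pass (log2 change -0.18, adjusted p = 0.19). Among loops with a mean of at least 20 and no overlap, the largest fall was at a loop of 430 kb around TBX21 and KPNB1, which went from 27.2 ± 3.9 to 8.37 ± 2.3 (log2 change -1.43, adjusted p = 1.7e-06). The loop at CPNE7 was among the 8 largest falls as well (log2 change -1.31), after a rise of 0.69 at 6 h that passed the threshold (adjusted p = 0.020).

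Cell cycle genes gave 8 changed loops of 31 tested (25.8%), of which 1 rose and 7 fell, against 20.5% of all tested loops. The median late change over the 31 was -0.13, against 0.00 over all tested loops. MYC, the transcription factor of growth and proliferation, anchored 12 of them, all reaching toward higher coordinates. At 460 kb from MYC, contacts were 43.1, 50.5, 55.2 and 53.1 at 6 h and 19.5, 29.1, 30.2 and 32.1 at 72 h, with no overlap (log2 change -0.81 ± 0.17 SE, adjusted p = 0.00012). The loops of 300 kb, 810 kb and 1830 kb fell by 0.56, 0.69 and 0.59 on the log2 scale (adjusted p = 0.019, 0.018 and 0.027). The other 8 did not pass, and ran from -0.21 to 0.76. The falls at 300 kb, 810 kb and 1830 kb did not pass with DESeq2 (adjusted p = 0.087, 0.096 and 0.12). They also ended without single libraries: at 300 kb without 6 h replicate 1 or 72 h replicate 1 or 4 (adjusted p up to 0.070), at 810 kb without 6 h replicate 1 (0.097), and at 1830 kb without 6 h replicate 3 or 4 or 72 h replicate 2 or 4 (up to 0.17).

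CCND1, which encodes cyclin D1, showed opposite moves at 1 gene. All of its 5 tested loops reach toward lower coordinates. The loop of 200 kb had 35.3, 41.1, 55.2 and 59.1 contacts at 6 h and 71.7, 69.3, 62.4 and 93.7 at 72 h (log2 change 0.66, adjusted p = 0.00025). The loop of 540 kb had 41.2, 48.6, 46.7 and 56.7 contacts at 6 h and 28.3, 22.1, 18.7 and 33.9 at 72 h (log2 change -0.83, adjusted p = 0.00012). Neither pair of groups overlapped. The loop of 1030 kb fell by 0.98 at a mean of 9.1 contacts (adjusted p = 0.021), and did not pass without 6 h replicate 1 or 2 or 72 h replicate 1 or 4 (up to 0.076). It also did not pass with DESeq2 run without its independent filtering (adjusted p = 0.088). AURKA, a mitotic kinase, shares an anchor with CSTF1, and their loop of 70 kb fell from 108 ± 18 (SD, n = 4) to 68.3 ± 11 (SD, n = 3), a log2 change of -0.63 (adjusted p = 6.0e-05).

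**Figure D2:**
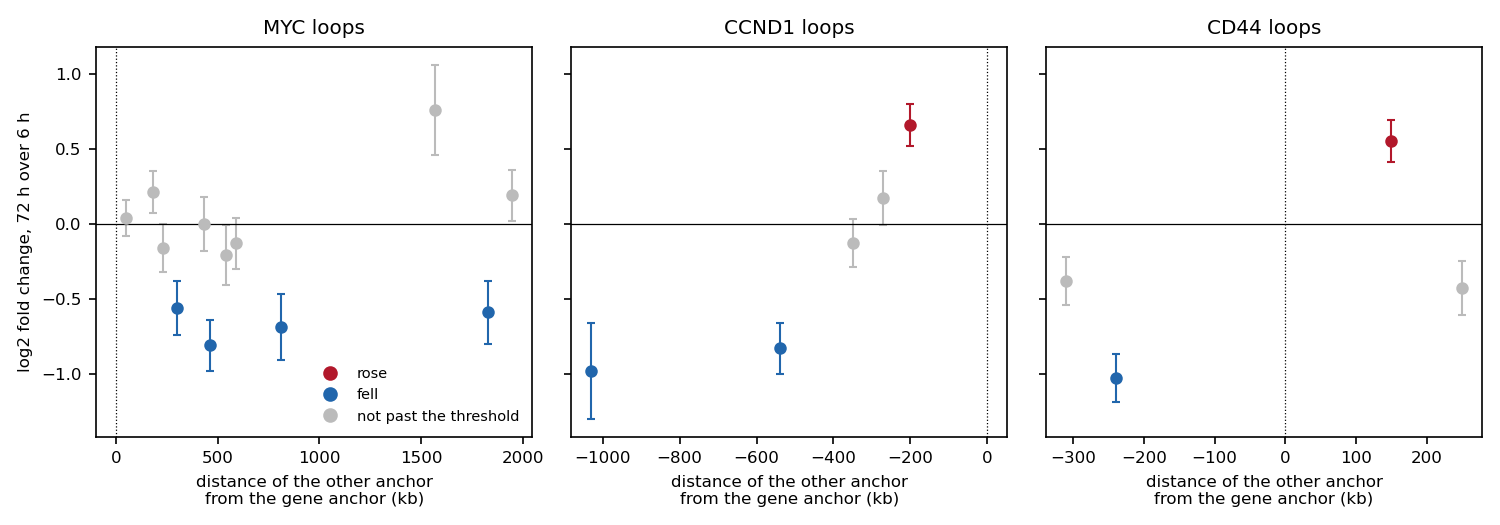
Log2 change of contacts from 6 h to 72 h (vertical axis, with SE bars) of every tested loop at MYC (12), CCND1 (5) and CD44 (4), by the distance in kb of the other anchor from the gene's anchor. Red points rose, blue fell and grey did not pass the threshold. At CCND1 the loop at 200 kb rose and those at 540 kb and 1030 kb fell.

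CD44 likewise had 1 loop that rose and 1 that fell. Beside the loss of the PDHX loop, its loop of 150 kb to the other side had 69.6, 46.7, 35.4 and 66.4 contacts at 6 h and 86.7, 86.3, 72.8 and 82.1 at 72 h (log2 change 0.55, adjusted p = 0.0017). The groups do not overlap, although the 6 h libraries spread widely. CD14, a monocyte receptor for lipopolysaccharide, lost contacts over 270 kb (log2 change -0.47, adjusted p = 0.017) and gained over 80 kb (0.34, adjusted p = 0.027). Libraries of both CD14 loops overlapped between 6 h and 72 h. The CD14 fall ended without 6 h replicate 1 or 72 h replicate 1 or 2 (adjusted p up to 0.082), and the rise ended without each of 6 h replicates 2, 3 and 4 and 72 h replicates 1, 3 and 4 (up to 0.11). With DESeq2 neither passed (adjusted p = 0.081 and 0.12). Across the table, 1028 anchors had 2 or more changed loops: 513 with rises alone, 356 with falls alone and 159 (15.5%) with both.

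For CD14, whose start lies in the anchor with both moves, the 250 bases before the start (RefSeq, GRCh38.p14, chr5:140633176-140633425, minus strand) hold 1 AP-1 match, in capitals, 223 bases before the start.
CD14: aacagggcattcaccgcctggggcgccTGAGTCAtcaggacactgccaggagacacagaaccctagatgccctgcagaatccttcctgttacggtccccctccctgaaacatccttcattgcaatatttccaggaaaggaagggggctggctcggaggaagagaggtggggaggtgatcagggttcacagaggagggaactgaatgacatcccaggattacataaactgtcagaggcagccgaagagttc

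Immediate early and AP-1 genes, the first to respond to PKC, gave 9 changed loops of 31 (29.0%), 5 higher and 4 lower, with a median of 0.07. EGR2, an early growth response factor, anchors a loop of 200 kb with 37.3, 37.4, 62.3 and 57.9 contacts at 6 h and 82.3, 94.4, 89.4 and 88.4 at 72 h (log2 change 0.88, adjusted p = 3.3e-07). DUSP4, a phosphatase of ERK, had 12.7, 26.2, 19.8 and 19.3 contacts at 6 h and 44.2, 32.1, 48.9 and 46.4 at 72 h over 670 kb (log2 change 1.06, adjusted p = 8.5e-06). Both loops have no overlap between 6 h and 72 h. The other DUSP4 loops, of 720 kb and 830 kb, did not pass, at log2 changes of -0.13 and -0.51 (adjusted p = 0.66 and 0.17). EGR3 had a loop that fell by 0.40 (adjusted p = 0.022) after a rise of 0.59 at 6 h, and one that rose by 0.41 (adjusted p = 0.0058). JUN and KLF6 each had 1 loop that rose, by 0.36 and 0.66 (adjusted p = 0.031 and 0.044). The other 3 JUN loops, at 0.32, -0.10 and -0.04, and the other 2 KLF6 loops, at 0.26 and 0.25, did not pass. NR4A1, MAFK and JUND each had 1 loop that fell, by 0.39, 0.67 and 0.36 (0.0027, 0.020 and 0.032), and 1 that did not pass, at -0.11, 0.14 and -0.24. An anchor of the JUND loop that fell also holds the start of IQCN. With DESeq2 the calls of JUN, KLF6, MAFK, JUND and the EGR3 fall ended (adjusted p = 0.13, 0.17, 0.089, 0.11 and 0.096). Leaving out 1 library ended the call of the EGR3 fall (6 h replicate 1, 72 h replicate 1 or 4, adjusted p up to 0.083) and of MAFK (6 h replicate 4, 72 h replicate 2, up to 0.10). The same held for JUN (6 h replicates 1, 2, 3, 72 h replicates 1, 3, 4, up to 0.15), for KLF6 (every one but 72 h replicate 3, up to 0.13) and for JUND (6 h replicates 3, 4, 72 h replicates 1, 2, up to 0.11).

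Megakaryocyte and platelet genes gave 3 rises and 1 fall of 16 tested loops (25.0% changed, median 0.02). ITGA2, the alpha 2 subunit of the collagen receptor, is a contrast to the late class. Its loop of 150 kb had 39.1, 37.0, 27.6 and 35.2 contacts at 0 h, 64.7, 55.1, 76.4 and 50.7 at 6 h, and 91.1, 91.4, 84.2 and 85.7 at 72 h. The 3 times do not overlap, with log2 changes of 0.75 to 6 h (adjusted p = 0.00040) and 0.52 from then on (adjusted p = 0.0016). The loop at ITGB3, the beta 3 subunit of the fibrinogen receptor of platelets, fell from 143 ± 27 (SD, n = 4) to 93.0 ± 11 (SD, n = 3), a log2 change of -0.63 (adjusted p = 1.0e-05). Of 4 tested loops at MEIS1, a homeobox factor of megakaryocyte progenitors, 1 rose, by 0.91 at low counts, 1.21 to 8.41 at 6 h and 10.6 to 15.1 at 72 h (adjusted p = 0.025). That call ended without 6 h replicate 1 or 4 or 72 h replicate 2 (adjusted p up to 0.14), and with DESeq2 run without its independent filtering (0.11). Counting genes that end up to 10 kb from an anchor, the megakaryocyte list gave 10 rises and 3 falls of 46 loops (median 0.15). With any stretch of the gene over the anchor it gave 9 rises and 1 fall of 41 (median 0.02). At up to 10 kb, immediate early genes gave 10 rises and 6 falls of 48, and adhesion genes 3 and 11 of 80. Cell cycle genes gave 4 and 10 of 58, signalling genes 2 and 6 of 49 and cytokine genes 2 and 8 of 34. Shares over all tested loops were not counted for these placements. Of 17 loops at erythroid genes none passed (median -0.15), while 5 had passed between 0 h and 6 h, where their median was -0.38. Counted up to 10 kb away, 3 of 35 erythroid loops fell, and with any stretch of the gene over the anchor 2 of 32, and none rose in either. Which genes differ between the steps was not tested.

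Among adhesion and cytoskeleton genes 1 loop rose and 4 fell of 36 (13.9%, median -0.12). Beside CD44, loops at ITGB5, ITGAX and ITGA3, all integrin subunits, fell by 0.61, 0.74 and 0.37 (adjusted p = 0.00011, 0.014 and 0.049). An anchor of the ITGA3 loop also holds the start of PDK2. The ITGAX call ended without 6 h replicate 1 or 3 or 72 h replicate 1 (adjusted p up to 0.10), and that of ITGA3 without any library but 6 h replicate 4 (up to 0.17). Both ended with DESeq2 (adjusted p = 0.078 and 0.17), and the other tested loops of ITGB5 and ITGAX did not pass (log2 changes -0.32 and -0.26). Cytokine and monocyte genes gave 1 rise and 4 falls of 22 (22.7%, median -0.07). Loops at the chemokine genes CXCL1 and CXCL2 fell by 0.50 and 0.48 (adjusted p = 0.042 and 0.0021), and that at the adhesion receptor ICAM1 by 0.29 (0.045). The CXCL1 call ended without 6 h replicate 1 or 3 or 72 h replicate 1, 2 or 4 (up to 0.12), and that of ICAM1 without 6 h replicate 1, 3 or 4 or 72 h replicate 1, 2 or 4 (up to 0.12). Both ended with DESeq2 (adjusted p = 0.15 and 0.12). The other 4 tested CXCL1 loops ran from -0.09 to 0.26 and did not pass.

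PKC, MAPK and NF-kB genes gave 2 rises and 3 falls of 18 (27.8%, median -0.07). The kinase gene PRKCE anchors a loop of 50 kb with 65.7, 82.2, 80.7 and 74.8 contacts at 6 h and 111, 104, 108 and 100 at 72 h (log2 change 0.47, adjusted p = 0.0018). TNFAIP3, the NF-kB inhibitor A20, had 79.4, 68.2, 75.0 and 65.1 contacts at 6 h and 114, 100, 115 and 110 at 72 h over 160 kb (0.60, adjusted p = 7.5e-05). Neither overlapped. The other TNFAIP3 loops, of 60 kb and 80 kb, had more contacts (169 and 129 at 6 h) and did not pass, at -0.07 and -0.05 (adjusted p = 0.68 and 0.77). Loops from IL2RA to PRKCQ, at NFKB2 and from RELB to MARK4 fell by 0.85, 1.06 and 0.48 (adjusted p = 0.0015, 0.0087 and 0.038). The call from RELB to MARK4 ended with DESeq2 (adjusted p = 0.14) and without 6 h replicate 1 or 4 or 72 h replicate 2 or 3 (up to 0.14). The call at NFKB2 ended with DESeq2 run without its independent filtering (adjusted p = 0.051). An anchor of the NFKB2 loop also holds the start of PSD. The other tested loops of PRKCQ and NFKB2 did not pass (0.15 and -0.13). Of the 7 lists, 6 held loops that rose and loops that fell, and the erythroid list, with gene ends inside the anchors, held none past the threshold. Changed loops made up shares of 0.0% to 29.0%, beside 20.5% of all tested loops.

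Gene density around the loop separated late rises from late falls. Density was counted as protein-coding gene midpoints within 500 kb of the loop's midpoint, a 1 Mb window. Among 7314 loops with 0 to 4 genes, 17.0% rose and 3.02% fell; among 2858 loops with 20 or more genes, 1.43% rose and 21.6% fell. The classes between followed in order, with 11.7% and 8.20% at 5 to 9 genes and 5.50% and 15.1% at 10 to 19. Median late changes were 0.18, 0.02, -0.11 and -0.19 from the lowest to the highest density, against 0.05, 0.02, -0.00 and -0.04 between 0 h and 6 h. This split was chosen after its values were seen, and the difference between the steps was not tested.

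The order held in each of the 4 length classes up to 800 kb and in each of 5 equal bins of loops by count. In loops of 200 to 400 kb the medians were 0.13, 0.01, -0.14 and -0.27, and after a correction for loop length over all loops 0.14, 0.02, -0.11 and -0.18. In the bin with the highest counts the range was narrower, from 0.02 to -0.12. Loops in gene-poor surroundings took 20.2%, 21.3%, 19.9% and 19.6% of all contacts in the 6 h libraries and 22.97%, 23.71% and 22.97% in the 72 h samples. Loops with 20 or more genes took 18.7%, 17.9%, 18.6% and 18.99% at 6 h and 16.7%, 16.4% and 16.7% at 72 h. The groups do not overlap in any of the 4 classes, and the exact permutation test (two-sided, 4 against 3) gave p = 0.0571 for each, which is the smallest it allows, also after adjustment over the 4. The difference in the lowest class was 2.60 percentage points within replicates 1 and 2 and 3.20 within replicates 3 and 4, and in the highest -1.71 and -2.07.

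**Figure D3:**
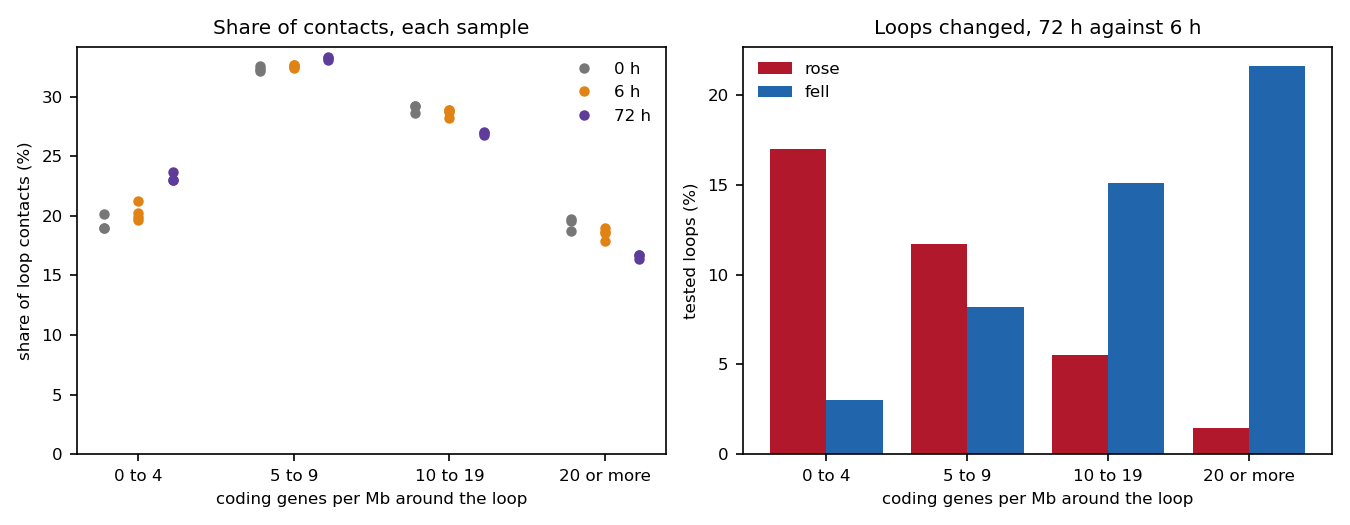
Left, share of all loop contacts (%) in 4 classes of gene density, with 1 point per sample (n = 3 at 0 h and 72 h, n = 4 at 6 h). Right, percentage of tested loops that rose (red) or fell (blue) from 6 h to 72 h in the same classes. Rises go from 17.0% to 1.43% and falls from 3.02% to 21.6% as density increases.

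The moves also differed by chromosome, and so did gene density. On chromosome 19, 1.24% of 647 tested loops rose and 20.4% fell, and on chromosomes 22, 17 and 16 falls made up 17.8%, 17.3% and 16.8%. Rises led on chromosomes 5 (15.8% against 6.63% that fell), 2 (14.8% against 9.55%) and 8 (13.6% against 7.19%). Tested loops on chromosomes 19, 22, 17 and 16 had a median of 29, 12, 13 and 11 genes per Mb. On chromosomes 5, 2 and 8 the medians were 5, 6 and 5. Chromosome 18 also had a median of 5, yet 7.03% of its loops rose and 10.1% fell. Whether chromosomes differ beyond gene density was not tested. The share of all contacts on chromosome 19 differed by -0.42 percentage points between 6 h and 72 h and that on chromosome 5 by 0.36. No share passed adjustment over 23 chromosomes (exact permutation test, smallest adjusted p = 0.0821, where the smallest p of the design is 0.0571).

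**Figure D4:**
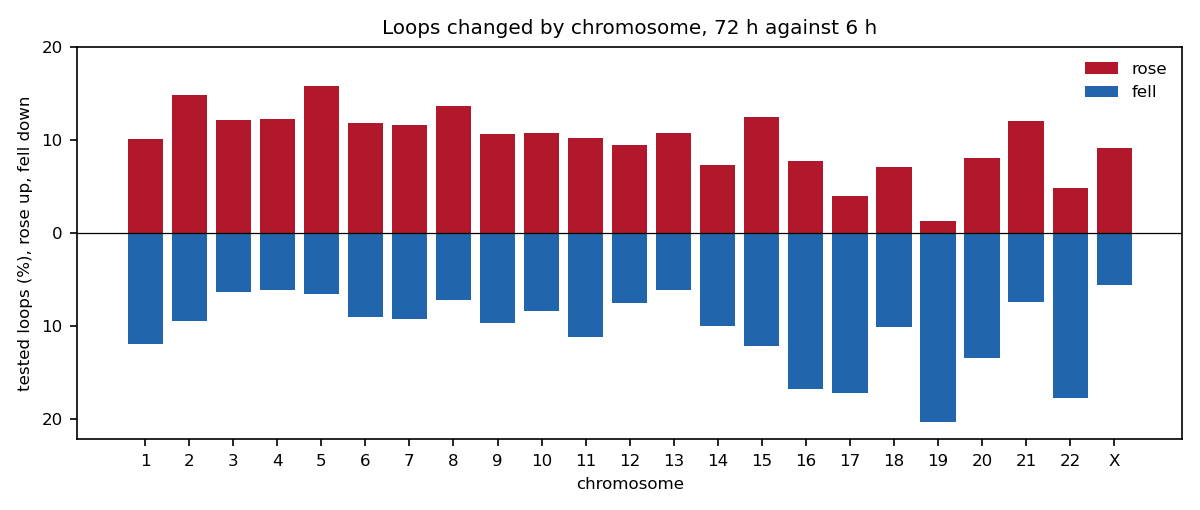
Percentage of tested loops on each chromosome that rose (red, upward) or fell (blue, downward) from 6 h to 72 h. Chromosome 19 has the lowest share of rises (1.24%) and the highest share of falls (20.4%).

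Long loops had medians above 0 in both steps. Of 293 tested loops over 1600 kb, 28.0% rose and 1.37% fell, and the median log2 change was 0.46, against 0.10 between 0 h and 6 h. Loops of 800 to 1600 kb had a median of 0.22 (16.4% rose, 2.49% fell), against 0.13 in the first step. Medians of the 4 shorter classes lay between -0.04 and 0.01 late, while the first step had run from -0.11 up to 100 kb to 0.10 at 400 to 800 kb. Long loops lie in gene-poor surroundings, with a median of 1 gene per Mb over 1600 kb and 12 up to 100 kb. With the length correction, which removes such a trend by construction, the median over 1600 kb was 0.08.

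Loops over 1600 kb held 1.30%, 1.46%, 1.33% and 1.26% of contacts in the 6 h libraries and 1.76%, 1.88% and 1.74% in the 72 h samples. Their mean share differed by 0.45 percentage points between 6 h and 72 h and by 0.20 between 0 h and 6 h. Loops of 800 to 1600 kb went from 4.58% ± 0.29 (SD, n = 4) to 5.33% ± 0.18 (SD, n = 3), a difference of 0.75 points, after one of 0.59 in the first step. Neither class overlapped between the times (exact permutation p = 0.0571, the smallest possible, adjusted over 6 classes p = 0.171). The share up to 100 kb was 28.4% ± 0.80 at 6 h and 28.0% ± 0.59 at 72 h (p = 0.514). Its difference was 0.42 percentage points within replicates 1 and 2 and -1.52 within replicates 3 and 4, so the direction turned between these sets of replicates. At 400 to 800 kb the sets also differed in direction (-0.42 and 0.83).

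**Figure D5:**
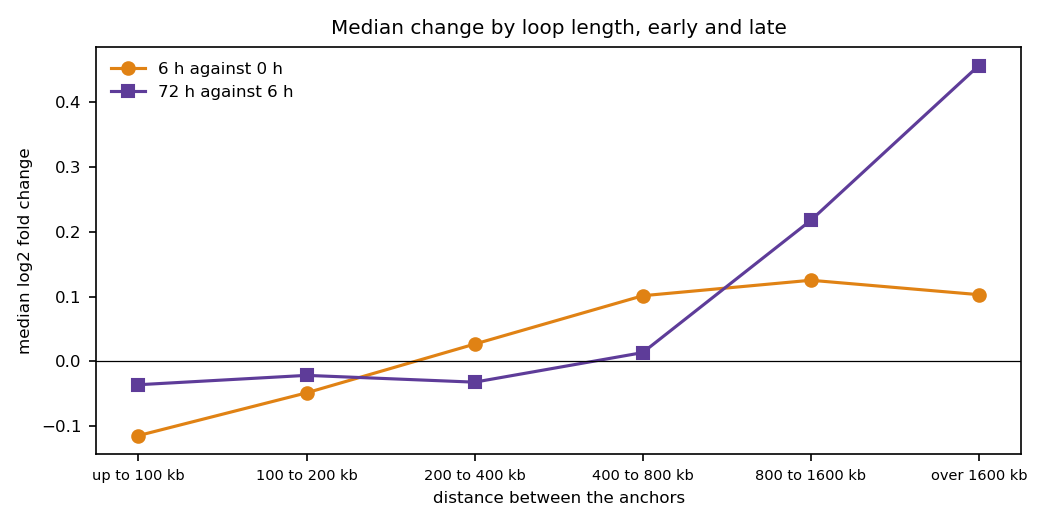
Median log2 change of contacts over tested loops (vertical axis) in 6 classes of anchor distance, between 0 h and 6 h (orange circles) and between 6 h and 72 h (purple squares). The 2 lines share the 6 h libraries. Over 1600 kb the late median is 0.46 and the early one 0.10.

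Most groups of linked loops held a single loop, but 1063 of 2577 rises and 1170 of 2368 falls stood alone, so most changed loops were linked. Linking loops through shared or adjoining anchors, the rises made 1575 groups, 1063 of them a single loop and 66 of 5 or more loops. The falls made 1619, 1170 of them a single loop and 35 of 5 or more. Whether linked loops are more frequent than loop positions alone would give was not tested. The groups with most members of the late class that rose lay at chr3:158800001-160420000 and at chr12:27960001-29010000. The first held 10 linked rises, 8 of them only after 6 h, with anchors at IQCJ, SCHIP1 and MFSD1 and log2 changes of 0.59 to 1.06. The second held 13 linked rises around PTHLH, the parathyroid hormone-like hormone, and CCDC91, 7 of them only after 6 h, with a median of 1.10, a median 6 h change of 0.24 and 2 coding genes. Around RORA, a nuclear receptor gene on chromosome 15, 8 of 9 tested loops rose (7 only after 6 h, median 0.71). Groups of 8 rises at TRIM24 on chromosome 7 and of 7 around SLC12A2 and FBN2 on chromosome 5 followed, with medians of 0.69 and 0.79. The medians of the groups cover only loops chosen as rises. Inside the 5 regions, in this order, 10 of 21, 13 of 19, 8 of 9, 8 of 16 and 7 of 16 tested loops rose, and none fell. Medians over all tested loops inside were 0.59, 0.81, 0.70, 0.37 and 0.39.

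Regions of linked falls held 8 to 37 coding genes each. At chr15:74370001-75210000, with CSK, a kinase that inhibits SRC family kinases, CLK3, EDC3 and UBL7 at anchors, 10 loops fell (9 only after 6 h, log2 changes of -1.33 to -0.31) and 1 rose, among 20 genes. At chr8:144330001-145070000, 13 linked loops fell among 32 genes, 6 of them only after 6 h, with a median of -0.67 and a median 6 h change of 0.20. Groups at ALPL and RAP1GAP on chromosome 1 (8 falls, 8 genes), at GNMT and PEX6 on chromosome 6 (8 falls, 30 genes) and at MMP14 and MYH6 on chromosome 14 (7 falls, 37 genes) had medians of -0.56, -0.53 and -0.56. The medians of the groups cover only loops chosen as falls. Inside the 5 regions, in this order, 10 of 13, 15 of 29, 9 of 21, 10 of 17 and 10 of 28 tested loops fell. On chromosomes 15 and 1, 1 loop inside rose. Medians over all tested loops inside were -0.51, -0.48, -0.43, -0.34 and -0.29. The 5 regions of rises held 1 to 9 coding genes each. The anchor with most falls lay in IL16 on chromosome 15, where all 5 tested loops fell (median -0.90), and the one with most rises at chr1:222450001-222460000, where 5 of 6 rose (median 0.82).

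Loops of the late class differed in what they join. An end of a coding gene lay in an anchor of 28.0% of loops that rose only after 6 h, of 48.1% of those that fell and of 35.2% of all tested loops. The median length was 280 kb, 210 kb and 290 kb, and the median normalized count 30.6, 49.9 and 29.4. In the authors' deposited table, which classes loops over all times, 489 of the loops that rose only after 6 h are gained and 1184 static, and of those that fell 158 are lost and 1290 static. No loop of the class has the opposite label there.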

How the data were processed

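In situ Hi-C of K562 cells at 0 h, 6 h and 72 h of PMA was deposited as 1 table of 33914 loops with raw contact counts, which the authors gave per technical replicate, per the file headers. The submitters' processing notes name Juicer 1.5.6, DESeq2 and the build hg38; loop calling is not given in the sources used here. The authors also deposited log2 fold changes, p-values and a class per loop, used here for the class only. Anchor starts, counted from 0 in the deposited table, are given counted from 1.

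Counts of technical replicates were summed to 12 libraries. For replicates 3 and 4 the table has 1 column per technical replicate, taken to hold both sequencing runs, which the sources used here do not state. The 24132 loops passing edgeR's filterByExpr (minimum count 10, minimum total 15) were fitted in 1 model of all libraries with edgeR 4.0.16 in R 4.3.3 (TMM, quasi-likelihood test, prior count 2, Benjamini-Hochberg, threshold 0.05), with no covariate. The SE is the log2 change divided by the root of F. On simulated counts for this comparison over 24132 loops the fit called 69% of 2-fold and 32% of 1.5-fold changes, with 3 false among 104 calls. These counts were drawn for independent libraries from the spread estimated by the same method, with 200 changed loops. They hold no near-equal pairs and no sets of replicates, so they do not give the rate of false calls in the real libraries. Shares of contacts were tested by exact permutation. Depth ranged from 736929 to 1472197 contacts per library, and the median of the mean counts of tested loops was 29.25, which limits what can be detected at single loops.

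Genes are the protein-coding genes of the RefSeq table (GRCh38.p14), which has no strand. Ends of coding genes lay in 16.3% of 43806 anchors, and in 12.2% and 12.5% after shifts of -100 kb and 100 kb. Promoters use the first start listed per gene. Named loops are the 8 largest rises and falls with a mean of at least 20 and no overlap of libraries, the 8 rises and 8 falls only after 6 h with the smallest p and a gene end in an anchor, changed loops at genes of 7 lists, the 5 linked groups with most late loops in each direction, and the 3 anchors with most changed loops. Members and lists were chosen with earlier results of these data known. Replicate numbers were not taken to pair libraries, since deviations of same-numbered libraries correlated at 0.015 to 0.061. Each 6 h library still correlated best with the 72 h library of its own number, and with that number as a block 5472 loops passed. Alternatives were DESeq2 1.42.0, other scalings, filters and thresholds, a length correction (loess, span 0.3), a term for replicates 1 and 2 against 3 and 4, which differ in technical replicates and sequencing runs per the labels, fits within each of these sets and leaving out each library.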

Additional observations from a re-analysis of the deposited data

Results flagged for a closer look

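Of 100 groups of 4 values at 6 h (named loops and shares of contacts), 4 had 1 library far from the others, where chance alone gives about 1 in 20, or 5. The rising EGR3 loop had 75.7 normalized contacts in 6 h replicate 2, against 90.6 to 92.9 in the others. Chromosome 4 held 4.40% of contacts in 6 h replicate 2, against 4.19% to 4.22%. Chromosome 7 held 5.81% in 6 h replicate 1, against 5.88% to 5.89%. Chromosome 16 held 3.68% in 6 h replicate 4, against 3.60% to 3.61%.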

How the results depend on the processing

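DESeq2 called 1989 loops (1046 higher, 943 lower), 812 of them only after 6 h (370 and 442), and 18 at listed genes, leaving out loops whose adjusted p it does not give. Without its independent filtering, an alternative chosen after seeing the data, the counts were 1979 (1051 and 928), 1173 (642 and 531) and 18. Fits within replicates 1 and 2 gave 2400 (1273 and 1127), 1234 (686 and 548) and 21, and within replicates 3 and 4 1690 (846 and 844), 897 (389 and 508) and 15, on fewer libraries. An adjusted p under 0.01 kept 2421 loops (1332 and 1089), and a fold of at least 1.5 kept 2766 (1635 and 1131). With the 6 h limit at 0.15, 1109 loops rose only after 6 h. Gene ends within 10 kb of an anchor gave 77 changed loops at listed genes in place of 36, and genes with any stretch over an anchor 72, since more loops then count. Replicates 3 and 4 summed at every time, also added later, gave 4495 loops. The remaining alternatives kept the counts within 1.5 times, but which direction held more loops depended on the setting. With no filter on low counts, 2275 loops were higher and 2706 lower, and only after 6 h 1403 and 1634. With the length correction the counts were 2296 and 2432, and only after 6 h 1440 and 1530.

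Leaving out 1 library gave 3676 to 4415 changed loops (1879 to 2243 higher, 1782 to 2214 lower), 2142 to 2756 only after 6 h (1135 to 1471 and 1007 to 1384), and 24 to 37 at listed genes. Differences in shares of contacts ran from -0.77 to -0.14 percentage points up to 100 kb, -0.39 to -0.18 at 100 to 200 kb, -0.74 to -0.53 at 200 to 400 kb, -0.03 to 0.30 at 400 to 800 kb (-0.033 without 6 h replicate 4), 0.67 to 0.89 at 800 to 1600 kb and 0.41 to 0.50 above. By gene density they ran from 2.72 to 3.30, 0.62 to 0.75, -1.87 to -1.65 and -2.12 to -1.76. With 72 h replicates 3 and 4 counted separately, the density differences of 2.90, 0.69, -1.70 and -1.89 had an exact permutation p of 0.0286, adjusted over the 4. Those of chromosomes 19, 17, 1, 3, 4 and 5 were then -0.39, -0.37, -0.26, 0.26, 0.30 and 0.35 (adjusted p = 0.0438). Both p-values treat as 2 samples a pair whose counts agreed within sampling noise. The density split was also chosen after its values were seen, and its 4 shares are parts of 1 total. Its p is therefore a description and not a test.

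With the replicate number as a block, 5472 loops passed (2819 and 2653), and each library correlated best with its own number, as a hint from the data. Of 67 named loops, 39 kept their call in every alternative, 28 lost it in at least 1, and none changed sign. A median of 29.25 contacts per tested loop limits the precision of single loops.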
